A study of Mus musculus with 10 samples.

Results

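Glutathione, NRF2 and ferroptosis genes are described here in mouse mammary tumors grown from 4T1 cells, a triple-negative mammary carcinoma line. The 10 genes, chosen by name for their function but with earlier results of these data known, were Slc7a11, Gclc, Gclm, Nqo1, Hmox1, Gpx4, Srxn1, Txnrd1, Gsr and Acsl4. All 10 were among the 17864 genes of the count table and passed the filter on low counts, as did 14816 genes in all. RNA of 5 tumors from 4T1 cells with Cas9 and a control guide RNA (sgCon) and of 5 tumors from 4T1 cells with Cas9 and a guide RNA that targets the TAZ gene (sgTaz) was sequenced. TAZ is a coactivator of transcription in the Hippo pathway and is encoded by Wwtr1. According to the methods of the study, the mammary fat pad (number 4) of female SCID or BALB/c mice, aged 6 to 8 weeks, received 100000 cells. Which of these hosts bore the sequenced tumors, and whether the cells were a clone or a pool, is not given in the sources used here. The labels name the cell type as tumor cell, but the RNA was that of the whole tumor, so that guide RNAs acted in the 4T1 cells and not in the host cells measured with them.

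Glutathione is the main thiol antioxidant of the cell. Its synthesis depends on cystine brought in by the exchanger xCT and on the enzyme glutamate cysteine ligase, and glutathione peroxidase 4 spends it to reduce lipid peroxides in membranes. Where this repair fails, peroxidized membrane lipids lead to ferroptosis, an iron-dependent form of cell death. NRF2, held in check by KEAP1, is the transcription factor that drives many of these genes through the antioxidant response element, while BACH1 competes for the same element.

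To show which of the 10 genes carry this element next to their start, the sequences around annotated starts were searched. RefSeq (GRCm38.p6) gave 12 windows for 7 of the 10 genes (Slc7a11, Gclm, Nqo1, Gpx4, Srxn1, Txnrd1 and Acsl4), each from 250 bases before a start to 50 bases after it. The core of the element was searched as TGACNNNGC on both strands, and 3 of the 12 windows held it, against 12.4% of all 32851 windows. These 3 windows are printed with the core in capitals, which reads here as its reverse complement, since each match lay on the strand opposite the gene. The window of Gclm is chr3:122245307-122245606 (plus strand), that of Srxn1 is chr2:152105274-152105573 (plus strand), and that of Txnrd1, at 1 of its 3 starts, is chr10:82858956-82859255 (plus strand).
Gclm: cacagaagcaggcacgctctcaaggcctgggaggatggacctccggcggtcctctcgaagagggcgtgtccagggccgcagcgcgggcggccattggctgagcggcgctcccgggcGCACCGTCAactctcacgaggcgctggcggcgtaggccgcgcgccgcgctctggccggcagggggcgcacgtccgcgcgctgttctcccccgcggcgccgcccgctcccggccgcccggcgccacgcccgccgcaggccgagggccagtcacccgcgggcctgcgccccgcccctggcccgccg
Srxn1: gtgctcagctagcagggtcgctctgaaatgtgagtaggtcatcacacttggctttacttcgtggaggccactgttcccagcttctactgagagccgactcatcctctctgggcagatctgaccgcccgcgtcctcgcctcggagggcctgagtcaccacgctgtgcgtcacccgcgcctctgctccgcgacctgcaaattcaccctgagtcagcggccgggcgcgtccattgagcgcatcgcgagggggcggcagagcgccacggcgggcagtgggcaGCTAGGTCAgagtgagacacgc
Txnrd1: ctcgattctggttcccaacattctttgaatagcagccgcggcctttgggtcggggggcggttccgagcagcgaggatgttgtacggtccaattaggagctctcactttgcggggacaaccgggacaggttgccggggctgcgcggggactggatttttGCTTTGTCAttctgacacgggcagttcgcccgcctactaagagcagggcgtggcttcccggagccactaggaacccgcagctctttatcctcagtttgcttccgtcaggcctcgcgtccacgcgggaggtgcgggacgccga
Counted from the start site, the match began at base -134 in Gclm, at base 29 in Srxn1 and at base -92 in Txnrd1. The AP-1 site, searched as TGANTCA, was found at bases -102 and -45 of the Srxn1 window, in 1 of the 12 windows against 7.81% of all. The TEAD site CATTCC, the letters recognized by the DNA-binding partners of TAZ, was in 0 of the 12 windows against 14.7% of all. A match is a run of letters in these windows and says nothing of binding in the tumors. Hmox1, Gclc and Gsr had no window, and sequence outside the windows and spellings of the core other than TGACNNNGC were not searched. The lack of a match thus does not show that a gene lacks the element.

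Counts per tumor summed to between 14753922 and 19595821 in sgCon and between 12185383 and 18395558 in sgTaz. Expression is given as CPM, the count of a gene set against the TMM-normalized library size. Wwtr1, the targeted gene, was at 115 to 192 CPM in sgCon tumors and 86.6 to 139 CPM in sgTaz tumors, with 4 of 5 sgTaz tumors below every sgCon tumor (log2 fold change -0.59, adjusted p = 0.0960 in edgeR, standard error 0.15). DESeq2 (adjusted p = 0.0151) and limma-voom (adjusted p = 0.0280) called it lower. Of all 14816 genes tested, 1 passed a Benjamini-Hochberg adjusted p of 0.05 in that test (0.00675%), which was Tmx4, a transmembrane member of the thioredoxin family and not among the 10 genes. At an unadjusted p below 0.05 the test had 3226 genes (21.8%), and DESeq2 called 1085 genes (6.75% of 16075). In 677 genes (4.57%) the 5 sgTaz tumors did not overlap the 5 sgCon tumors. The median log2 fold change of all genes was -0.019. The groups also differed in markers of cell types. All 9 macrophage markers were at higher means in sgTaz tumors (summed level 769 to 1801 CPM in sgCon and 1555 to 2125 CPM in sgTaz). All 8 tumor epithelial markers were at lower means (2119 to 4680 against 1547 to 3530 CPM), as were all 7 B cell markers (62.4 to 839 against 0.955 to 195 CPM), all 5 T cell markers, the 7 neutrophil markers that passed the filter of 8, and the 4 lymph node stroma markers that passed of 6. By edgeR, 0 of these markers passed the adjusted test, while DESeq2 called 3 macrophage markers higher and 2 T cell markers and 1 tumor epithelial marker lower. In RNA of whole tumors, fewer cells of a type and less RNA per cell cannot be told apart.

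None of the 10 genes passed the adjusted test of edgeR (0 of 10, against 0.00675% of all genes) or of DESeq2 (0 of 10, against 6.75%, of which 3.28% were higher and 3.47% lower in sgTaz). At an unadjusted p below 0.05, 2 of 10 passed, against 21.8% of all genes, and both of them, Gpx4 and Hmox1, had lower values in sgTaz tumors (11.9% of all genes). With a correction for GC content and length of genes this count was 0 of 10, and with 1 tumor left out it was between 1 and 3. No gene of the 10 had groups without overlap (0 of 10, against 4.57%). Of the 10 log2 fold changes, 6 were above 0 and 4 below, and their median was 0.068. Limma-voom with sample quality weights called the most genes of the tests tried (10.4% of all genes, 4.63% higher and 5.80% lower in sgTaz), and it called 2 of the 10, Gpx4 and Hmox1, both lower. The 95% intervals of the fits bound the size of a difference. For Txnrd1 the interval of the log2 fold change was -0.089 to 0.31 and for Gclm -0.16 to 0.26, the 2 narrowest of the 10, while for Nqo1 it was -0.63 to 0.85, the widest.

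**Figure D1:**
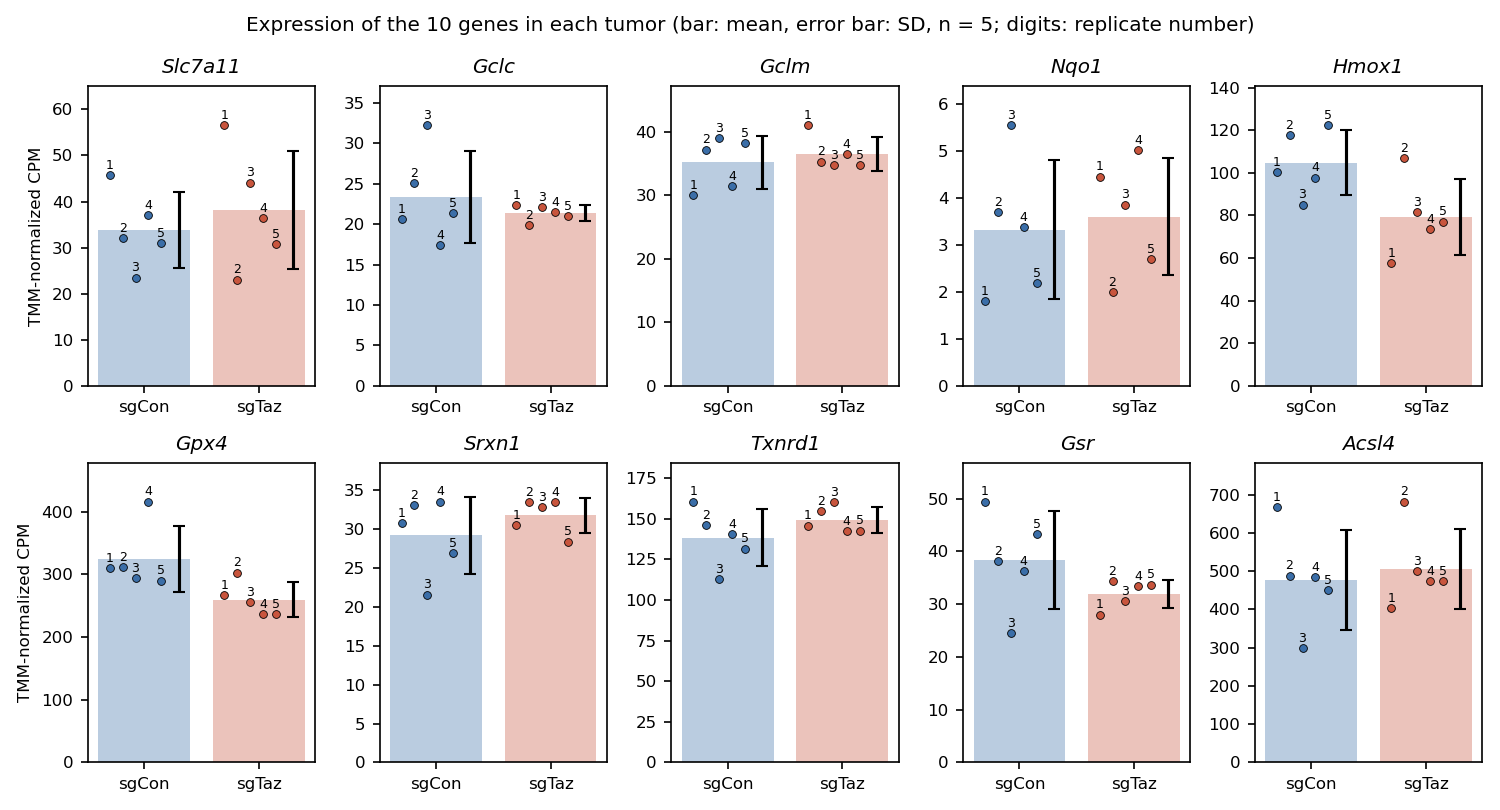
Expression of each of the 10 genes in TMM-normalized CPM (vertical axis, from 0) in 5 sgCon and 5 sgTaz tumors. Points are tumors with their replicate numbers, bars are means and error bars are SD (n = 5). In Gpx4 and Hmox1, 4 of 5 sgTaz tumors lie below every sgCon tumor, and in all 10 genes the groups overlap.

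Gpx4 encodes glutathione peroxidase 4, the selenoprotein that reduces lipid peroxides and holds back ferroptosis (chr10:80047166-80056439, plus strand). It was at 310, 311, 295, 416 and 290 CPM in sgCon tumors 1 to 5 and at 267, 303, 256, 237 and 236 CPM in sgTaz tumors 1 to 5. All sgTaz tumors but tumor 2 were below the lowest sgCon tumor, and sgCon tumor 4 stood far above the others. Mean expression was 324 ± 52.2 CPM (SD, n = 5) in sgCon and 260 ± 27.5 CPM (SD, n = 5) in sgTaz, a log2 fold change of -0.32 (standard error 0.11, 95% interval -0.57 to -0.075). This had an unadjusted p of 0.0149 and after Benjamini-Hochberg adjustment 0.148 in the quasi-likelihood test of edgeR, and DESeq2 gave an adjusted p of 0.125. An exact two-sided permutation test of the 10 tumors gave p = 0.0238, where the smallest possible is 0.00794. In limma-voom with sample quality weights Gpx4 passed (log2 fold change -0.33, adjusted p = 0.0393). Without sgCon tumor 4 the log2 fold change was -0.21, and with a correction for GC content and length of genes it was -0.18 (adjusted p = 0.290 from edgeR). A transcribed copy, Gpx4-ps2, had 51 to 162 counts per tumor, against 2924 to 7497 for Gpx4; how reads matching both were assigned is not stated.

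Hmox1 encodes heme oxygenase 1, which breaks heme down to biliverdin, carbon monoxide and iron (chr8:75093621-75100589, plus strand). It was at 100.4, 118, 85.1, 97.7 and 122 CPM in sgCon tumors 1 to 5 and at 57.5, 107, 81.6, 73.6 and 77.1 CPM in sgTaz tumors 1 to 5. As for Gpx4, every sgTaz tumor except tumor 2 was below the lowest sgCon tumor. Means were 105 ± 15.2 CPM (SD, n = 5) in sgCon and 79.3 ± 17.8 CPM (SD, n = 5) in sgTaz, with a log2 fold change of -0.40 (standard error 0.15, 95% interval -0.73 to -0.065). Its unadjusted p was 0.0234 and its adjusted p 0.172 in edgeR's quasi-likelihood test, and DESeq2 gave an adjusted p of 0.134. The exact two-sided permutation test gave p = 0.0476. Limma-voom with sample quality weights called Hmox1 too (log2 fold change -0.50, adjusted p = 0.0296). Corrected for GC content and length, the log2 fold change of Hmox1 was -0.28 (unadjusted p = 0.101, adjusted p = 0.330 in edgeR). In sgTaz tumor 2, where both Gpx4 and Hmox1 were highest among sgTaz tumors, the summed tumor epithelial markers were also highest of that group (3530 CPM, others 1547 to 2054). Among sgCon tumors these markers were highest in tumor 1 (4680 CPM), but Gpx4 was highest in tumor 4 and Hmox1 in tumor 5. The part of the cell type markers in the values of Gpx4 and Hmox1 was not tested.

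**Figure D2:**
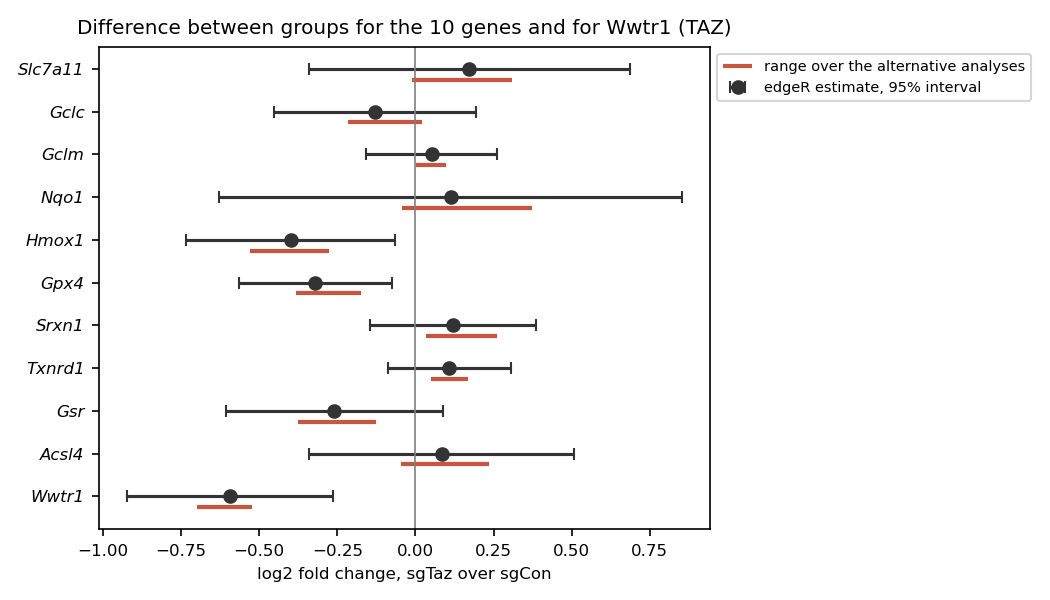
Log2 fold change of sgTaz over sgCon tumors (horizontal axis) for the 10 genes and Wwtr1. Points are edgeR estimates with 95% intervals (black), and the red line under each is the range over the alternative tests, normalizations, filters, corrections and left-out tumors. Gpx4, Hmox1, Gsr and Wwtr1 keep estimates below 0 in all of these, and Gclm, Srxn1 and Txnrd1 keep estimates above 0. The ranges of Slc7a11, Gclc, Nqo1 and Acsl4 span 0.

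Slc7a11 encodes the transport subunit of xCT, the cystine and glutamate exchanger (chr3:49892526-50443614, minus strand). It was at 45.8, 32.03, 23.5, 37.1 and 31.0 CPM in sgCon tumors 1 to 5 and at 56.6, 23.1, 44.1, 36.4 and 30.7 CPM in sgTaz tumors 1 to 5. Both the highest and the lowest of the 10 tumors were sgTaz tumors. The log2 fold change was 0.17 (adjusted p = 0.696 in edgeR, standard error 0.23), and without sgTaz tumor 1 it was -0.012.

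Gclc and Gclm encode the catalytic and the modifier subunit of glutamate cysteine ligase, the first enzyme of glutathione synthesis. Gclc (chr9:77754535-77794485, plus strand) was at 20.6, 25.1, 32.2, 17.4 and 21.4 CPM in sgCon tumors 1 to 5 and at 22.3, 19.9, 22.1, 21.4 and 20.96 CPM in sgTaz tumors 1 to 5. The 5 sgTaz tumors all lay inside the range of the sgCon tumors, with a coefficient of variation of 4.57% against 24.3%. Its log2 fold change was -0.13 (adjusted p = 0.642 in edgeR, standard error 0.15). Gclm (chr3:122245557-122270732, plus strand) was at 30.1, 37.2, 39.0, 31.4 and 38.2 CPM in sgCon tumors 1 to 5 and at 41.1, 35.3, 34.7, 36.5 and 34.7 CPM in sgTaz tumors 1 to 5. Only sgTaz tumor 1 was above every sgCon tumor. The log2 fold change of Gclm was 0.05 (adjusted p = 0.783 in edgeR, standard error 0.096). Gclm shares 296 exon bases with Gm17494 on the opposite strand and 244 with the pseudogene Gm6061 on its own, and how such reads were counted is not stated. Gsr encodes glutathione reductase, which returns oxidized glutathione to its reduced form with NADPH (chr8:33652523-33698163, plus strand). It was at 49.4, 38.1, 24.5, 36.2 and 43.3 CPM in sgCon tumors 1 to 5 and at 28.0, 34.3, 30.6, 33.3 and 33.7 CPM in sgTaz tumors 1 to 5. Every sgCon tumor except tumor 3 was above every sgTaz tumor. The log2 fold change of Gsr was -0.26 (adjusted p = 0.358 in edgeR, standard error 0.16), and it ranged from -0.38 without sgCon tumor 3 (adjusted p = 0.132) to -0.15 without sgCon tumor 1 (adjusted p = 0.575).

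Txnrd1 and Srxn1 belong to the thioredoxin arm of redox defense. Txnrd1 encodes cytosolic thioredoxin reductase, a selenoprotein (chr10:82833951-82897712, plus strand), and was at 161, 146, 113, 141 and 132 CPM in sgCon tumors 1 to 5 and at 146, 155, 160, 142 and 143 CPM in sgTaz tumors 1 to 5. The sgTaz tumors lay within the range of the sgCon tumors, and the log2 fold change was 0.11 (adjusted p = 0.504 in edgeR, standard error 0.090). Srxn1 encodes sulfiredoxin, which restores overoxidized peroxiredoxins (chr2:152105516-152111376, plus strand). It was at 30.8, 33.1, 21.6, 33.5 and 26.9 CPM in sgCon tumors 1 to 5 and at 30.6, 33.5, 32.8, 33.5 and 28.4 CPM in sgTaz tumors 1 to 5. Apart from sgCon tumor 3 at the low end, the groups lay over each other, with a log2 fold change of 0.12 (adjusted p = 0.591 in edgeR, standard error 0.12). Txnrd1, Srxn1 and Gclm, the 3 genes with a window that matched TGACNNNGC, had log2 fold changes between 0.05 and 0.12. Of the genes without such a match in their windows, Slc7a11 (0.17), Nqo1 (0.11) and Acsl4 (0.084) were also above 0, and Gpx4 (-0.32) was below. The 95% intervals of all these genes but Gpx4 spanned 0.

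Nqo1 encodes a quinone reductase and is widely used as a readout of NRF2 (chr8:107388225-107403206, minus strand). It was at 1.80, 3.70, 5.55, 3.39 and 2.19 CPM in sgCon tumors 1 to 5 and at 4.46, 2.002, 3.86, 5.02 and 2.69 CPM in sgTaz tumors 1 to 5. The values spread about as widely in both groups, and the log2 fold change was 0.11 (adjusted p = 0.872 in edgeR, standard error 0.34). Acsl4 encodes the acyl-CoA synthetase that loads polyunsaturated fatty acids for membrane lipids and so feeds ferroptosis (chrX:142317993-142390535, minus strand). It was at 667, 488, 299, 483 and 449 CPM in sgCon tumors 1 to 5 and at 403, 681, 500, 473 and 474 CPM in sgTaz tumors 1 to 5. Highest were sgCon tumor 1 and sgTaz tumor 2, which also had the highest summed tumor epithelial markers of their groups (4680 and 3530 CPM). The log2 fold change of Acsl4 was 0.084 (adjusted p = 0.829 in edgeR, standard error 0.19), and it was -0.038 without sgCon tumor 3 and -0.046 without sgTaz tumor 2.

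Levels of different genes are compared per kb of exon, with every annotated exon base of a gene counted (13922 for Slc7a11, 1553 for Nqo1). The order thus depends on annotated length. Before this division, Slc7a11 was at a mean of 33.9 CPM and Nqo1 at 3.33 CPM in sgCon tumors. In sgCon tumors, Gpx4 was the highest of the 10 at 188 CPM per kb, followed by Acsl4 at 88.3 and Hmox1 at 59.8 CPM per kb. Txnrd1 (19.5), Gsr (13.9) and Srxn1 (10.3 CPM per kb) came next, then Gclc (6.20) and Gclm (5.59 CPM per kb), and last Slc7a11 (2.43) and Nqo1 (2.14 CPM per kb). Gclc and Gclm differed by less than the SD of Gclc (1.51 CPM per kb), and Slc7a11 and Nqo1 by less than the SD of either (0.591 and 0.950 CPM per kb). In sgTaz tumors the order was the same except that Gclm (5.80) stood above Gclc (5.67 CPM per kb). The biological coefficient of variation estimated by edgeR was 0.115 for Txnrd1 and 0.127 for Gclm but 0.377 for Nqo1 and 0.266 for Slc7a11, which was above the trend for genes of its level (0.192). In 8 of the 10 genes the coefficient of variation of CPM was lower in sgTaz than in sgCon tumors, as in 61.1% of all genes, and without sgCon tumor 3 this held for 6 of the 10 and 50% of all genes.

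Several tumors were the highest or lowest of their group in most of the 10 genes: sgCon tumor 3 in 9, sgTaz tumor 2 in 7, and sgCon tumor 1 and sgTaz tumor 1 in 6 each. Over all genes, these tumors were at an edge in 57.7%, 53.7%, 42.8% and 45.9%. Tumor 3 of sgCon was the lowest of the sgCon tumors in 6 (Slc7a11, Hmox1, Srxn1, Txnrd1, Gsr and Acsl4) and the highest in 3 (Gclc, Gclm and Nqo1). The same tumor had the highest summed B cell (839 CPM), T cell (421 CPM) and lymph node stroma markers (693 CPM) of the sgCon tumors and the lowest summed tumor epithelial (2119 CPM), fibroblast (1462 CPM), neutrophil (358 CPM), endothelial (341 CPM) and adipocyte markers (4.24 CPM). Without it, 0 of the 10 genes passed the adjusted test of edgeR, as with all tumors, against 5 of all 14948 genes then tested. The log2 fold changes of Gpx4 and Hmox1 were -0.35 and -0.46. Without sgTaz tumor 5, which carried most of the B cell and lymph node stroma markers of its group, 0 of the 10 passed as well, against 172 of 14974 genes. The log2 fold changes of Gpx4 and Hmox1 were then -0.29 and -0.39. Where so few genes pass, a count of 0 of 10 says little of how the 10 genes depend on these tumors. The part of these markers in the levels of the 10 genes was not tested.

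**Figure D3:**
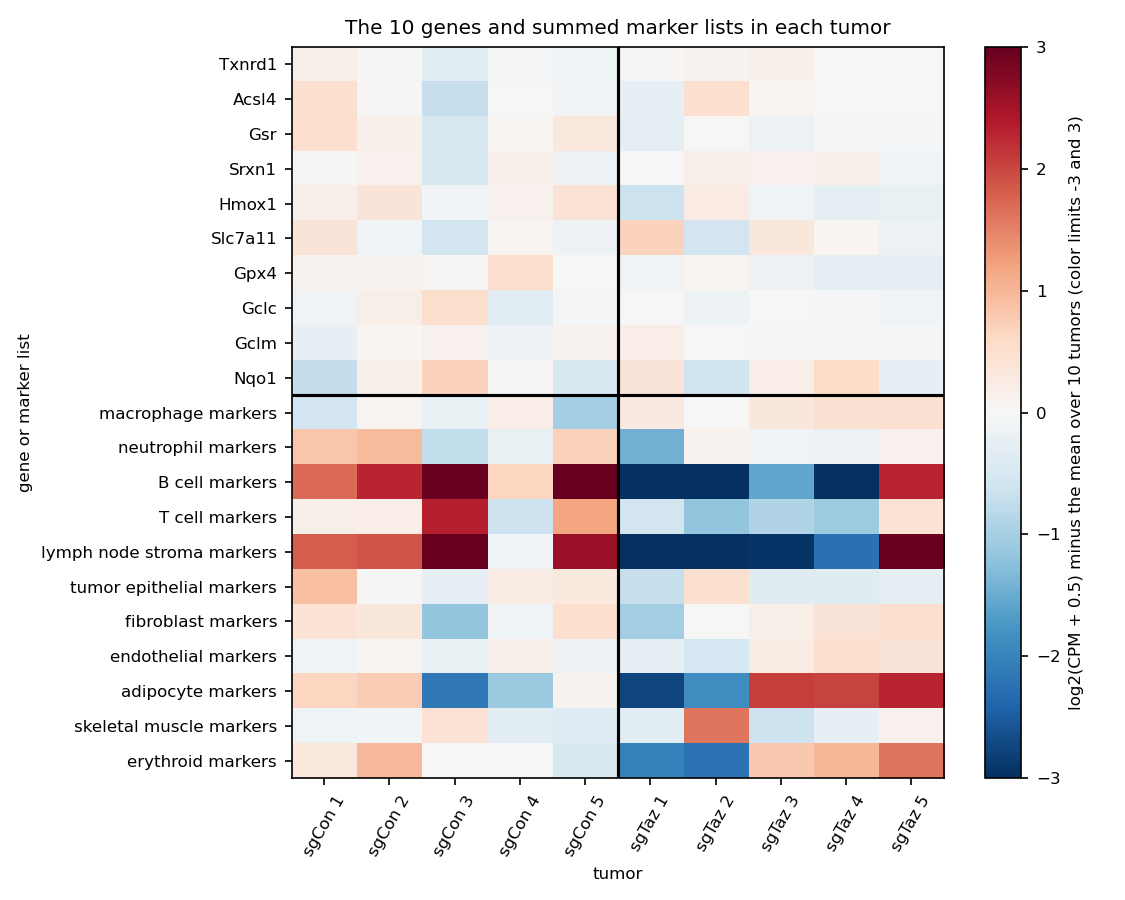
Level of the 10 genes (upper rows) and of summed marker lists (lower rows) in each tumor (columns), as log2(CPM + 0.5) minus the mean over 10 tumors, with colors that stop at -3 and 3. The 10 genes vary by much less between tumors than B cell, lymph node stroma or adipocyte markers, and sgCon tumor 3 is low in Acsl4, Gsr, Srxn1 and Txnrd1 and high in Gclc and Nqo1.

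To see whether the 10 genes varied together apart from the group difference, each pair was correlated over the 10 tumors after the group means of log2 CPM were taken off. Of the 45 pairs, 24 had a positive Pearson's r and 8 had an unadjusted permutation p below 0.05. After Benjamini-Hochberg adjustment over the 45 pairs 0 passed, by Pearson's r or Spearman's rho. The share of pairs with such a p among all genes was not computed. Each r was set against the r of either gene with all genes tested. The 4 pairs with the smallest p were among Txnrd1, Gsr, Acsl4 and Nqo1. Txnrd1 and Acsl4 had r = 0.87 (permutation p = 0.00887, adjusted p = 0.111) and rho = 0.84 (permutation p = 0.00462, adjusted p = 0.180). Without sgCon tumors 1 and 3, the farthest from the median of Txnrd1, r was 0.52. Of all genes, 0.918% had a higher r with Txnrd1 and 2.11% with Acsl4. Gsr and Acsl4 had r = 0.85 (permutation p = 0.00982, adjusted p = 0.111) and rho = 0.62 (permutation p = 0.0734, adjusted p = 0.292), and r was 0.45 without the same 2 tumors. For this pair, 2.37% of all genes had a higher r with Gsr and 2.57% with Acsl4. Nqo1 ran the other way, and 97.3% of all genes had a higher r with it than Gsr and 97.6% than Acsl4. With Gsr it had r = -0.80 (permutation p = 0.0051, adjusted p = 0.111) and rho = -0.81 (permutation p = 0.0122, adjusted p = 0.180), and r was -0.78 without sgCon tumor 1 and sgTaz tumor 2. With Acsl4 it had r = -0.82 (permutation p = 0.00943, adjusted p = 0.111) and rho = -0.76 (permutation p = 0.0160, adjusted p = 0.180), and r was -0.59 without those 2 tumors. The subunits Gclc and Gclm had r = 0.67 (permutation p = 0.101, adjusted p = 0.295) and rho = 0.73 (permutation p = 0.0510, adjusted p = 0.292). Without sgCon tumors 3 and 4, r was 0.54. For these subunits, 8.27% of all genes had a higher r with Gclc and 2.68% with Gclm. Gpx4 and Hmox1, the 2 genes with the smallest p between groups, had r = 0.14 (permutation p = 0.675, adjusted p = 0.759) and rho = -0.14 (permutation p = 0.718, adjusted p = 0.788), and r was 0.38 without sgCon tumor 5 and sgTaz tumor 1.

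**Figure D4:**
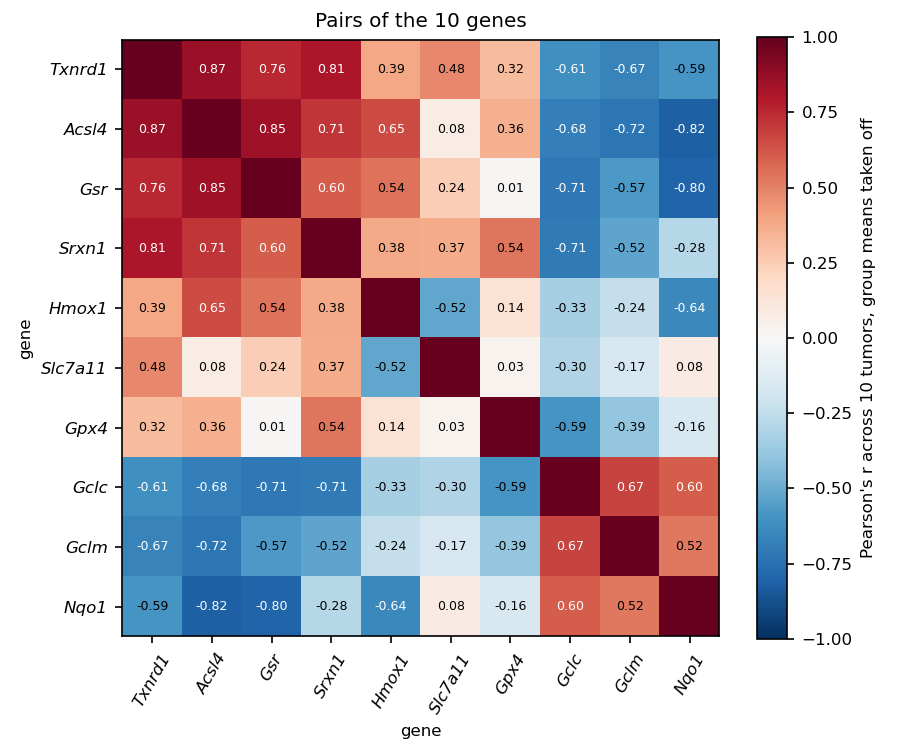
Pearson's r of each pair of the 10 genes across 10 tumors after the group means were taken off (color and printed value, from -1 to 1). Txnrd1, Acsl4, Gsr and Srxn1 have positive r with each other and negative r with Gclc, Gclm and Nqo1, and 0 of 45 pairs pass the adjusted permutation test.

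Beside the 10 genes, 91 other genes of the same pathways were examined in 7 lists, and all 91 passed the filter. By edgeR 0 of the 91 passed the adjusted test, against 0.00675% of all genes. At an unadjusted p below 0.05 in edgeR, 3 were higher and 5 lower in sgTaz tumors (9.86% and 11.9% of all genes). The median log2 fold change of the 91 was -0.027. DESeq2 called 1 of the 91 (Por, higher in sgTaz), against 6.75% of all genes (3.28% higher in sgTaz). Groups did not overlap in 2 genes higher (Por and Alox12, against 2.44% of all genes) and 1 lower in sgTaz tumors (Fth1, against 2.13%).

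**Figure D5:**
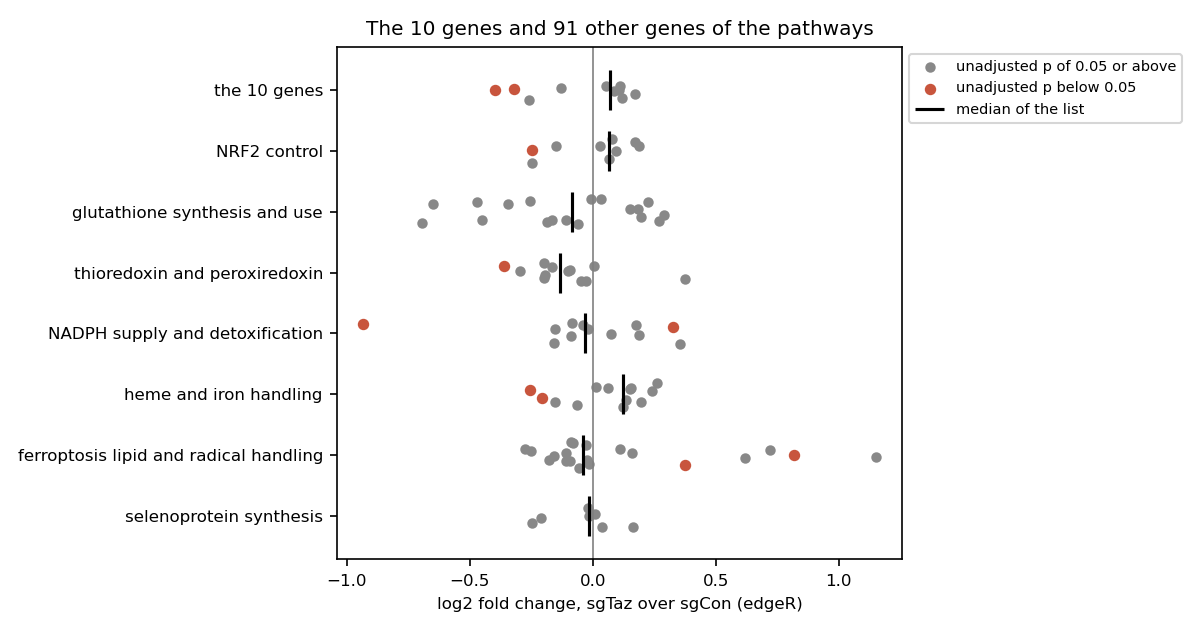
Log2 fold change of sgTaz over sgCon tumors from edgeR (horizontal axis) for each of the 10 genes and of 91 other pathway genes in 7 lists. Each point is a gene, in red where its unadjusted p was below 0.05, and black lines are medians of lists, which lie between -0.13 (thioredoxin and peroxiredoxin) and 0.12 (heme and iron handling).

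Among 9 genes of NRF2 control, 6 had log2 fold changes above 0 and 3 below, and the median was 0.065. Nfe2l2, which encodes NRF2, was at 111 ± 16.8 CPM in sgCon and 118 ± 12.9 CPM in sgTaz tumors (SD, n = 5), a log2 fold change of 0.09 (adjusted p = 0.660 from edgeR). Keap1, its inhibitor, had 0.17 (adjusted p = 0.316) and Bach1, its competitor, had 0.19 (adjusted p = 0.363 from edgeR). Maff, 1 of the small Maf partners of NRF2, was at 39.9 to 42.2 CPM in sgCon tumors and 29.2 to 40.0 CPM in sgTaz tumors, the only gene of the list with an unadjusted p below 0.05 (log2 fold change -0.25, adjusted p = 0.191 from edgeR). Mafk had the same log2 fold change (-0.25, adjusted p = 0.306 from edgeR). Keap1 shares 510 exon bases with an antisense gene and Mafk 169 with Tmem184a on the opposite strand, and whether reads were counted by strand is not stated.

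In the list of glutathione synthesis and use, 7 of 18 genes had log2 fold changes above 0 and 11 below (median -0.085), and 0 had an unadjusted p below 0.05. Abcc1, an exporter of glutathione conjugates (0.20, adjusted p = 0.250), and Mgst1, a membrane glutathione transferase (0.23, adjusted p = 0.255 from edgeR), had the smallest p on the higher side. Gstp1 (-0.17, adjusted p = 0.264) and Gstm1 (-0.70, adjusted p = 0.289 from edgeR), both cytosolic glutathione transferases, had the smallest on the lower side. Gstm1 was at 21.3 and 15.8 CPM in sgCon tumors 3 and 5 and between 4.78 and 9.39 CPM in the other 8 tumors, and without sgCon tumor 3 its log2 fold change was -0.33. Of 12 genes of the thioredoxin and peroxiredoxin list, 10 had log2 fold changes below 0, with a median of -0.13, the lowest of the 7 lists. Prdx5, a peroxiredoxin of mitochondria, peroxisomes and cytosol, was at 294, 236, 218, 315 and 265 CPM in sgCon tumors 1 to 5 and at 217, 236, 190, 200 and 191 CPM in sgTaz tumors 1 to 5. All sgTaz tumors but tumor 2 were below every sgCon tumor, as in Gpx4 and Hmox1. Its log2 fold change was -0.36 (adjusted p = 0.115 in edgeR, standard error 0.11), DESeq2 gave an adjusted p of 0.0618, and limma-voom called it (adjusted p = 0.0280, as it did 5.80% of all genes in this direction). Prdx5 shares 409 exon bases with Trmt112 on the opposite strand. Txn2, the mitochondrial thioredoxin, had a log2 fold change of -0.20 (adjusted p = 0.310), Txnrd3, a thioredoxin and glutathione reductase, 0.37 (adjusted p = 0.265), and Prdx6 0.0034 (adjusted p = 0.989 from edgeR).

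NADPH feeds both glutathione reductase and thioredoxin reductase. Of 12 genes of NADPH supply and detoxification, 5 had log2 fold changes above 0 and 7 below (median -0.030). Idh1, the cytosolic isocitrate dehydrogenase that makes NADPH, was at 102 to 140 CPM in sgCon tumors and 129 to 182 CPM in sgTaz tumors (log2 fold change 0.33, adjusted p = 0.144 from edgeR). Me1, the cytosolic malic enzyme, had 0.19 (adjusted p = 0.298) and Taldo1, of the pentose phosphate pathway, -0.15 (adjusted p = 0.374 from edgeR). Ephx1, an epoxide hydrolase, was at 10.2 to 41.7 CPM in sgCon and 7.36 to 15.9 CPM in sgTaz tumors (log2 fold change -0.93, adjusted p = 0.200 in edgeR, standard error 0.39), with its highest value in sgCon tumor 3, without which the log2 fold change was -0.55 (adjusted p = 0.389).

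Of 13 genes of heme and iron handling, 9 had log2 fold changes above 0 and 4 below (median 0.12). Fth1, the heavy chain of the iron store ferritin, was at 2175, 1961, 1823, 2161 and 1990 CPM in sgCon tumors 1 to 5 and at 1754, 1814, 1724, 1724 and 1751 CPM in sgTaz tumors 1 to 5. Every sgTaz tumor was below every sgCon tumor, although the lowest sgCon tumor and the highest sgTaz tumor were close. Its log2 fold change was -0.21 (adjusted p = 0.151 in edgeR, standard error 0.073), the exact permutation test gave p = 0.00794, the smallest possible, and limma-voom called it (adjusted p = 0.0368). Corrected for GC content and length, the value was -0.10 (adjusted p = 0.590 in edgeR). Tfrc, the transferrin receptor, had a log2 fold change of -0.26 (adjusted p = 0.198). Ireb2, an iron-responsive RNA-binding protein, had 0.13 (adjusted p = 0.242) and Ncoa4, the receptor that sends ferritin to lysosomes, 0.24 (adjusted p = 0.345 from edgeR).

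Among 20 genes of lipid and radical handling in ferroptosis, 7 had log2 fold changes above 0 and 13 below (median -0.041). Por, the cytochrome P450 reductase, which can feed lipid peroxidation, was at 70.0, 73.5, 66.9, 63.9 and 64.2 CPM in sgCon tumors 1 to 5 and at 116, 78.1, 83.2, 78.9 and 82.7 CPM in sgTaz tumors 1 to 5. All sgTaz tumors were above all sgCon tumors, with tumor 1 far above the rest. Its log2 fold change was 0.37 (adjusted p = 0.113 in edgeR, standard error 0.11), DESeq2 gave an adjusted p of 0.0347, and the exact permutation test gave p = 0.00794. Without sgTaz tumor 1 the log2 fold change was 0.25 (adjusted p = 0.179 from edgeR). Alox12, a lipoxygenase, was at 0.420 to 1.17 CPM in sgCon tumors and 1.23 to 2.27 CPM in sgTaz tumors (log2 fold change 0.82, adjusted p = 0.164 in edgeR, standard error 0.31). Gch1, which makes the radical-trapping tetrahydrobiopterin, had -0.28 (adjusted p = 0.314), and Cisd1, an iron-sulfur protein of the outer mitochondrial membrane, had -0.18 (adjusted p = 0.440 from edgeR). GPX4 and cytosolic thioredoxin reductase need selenocysteine, and the 7 genes of selenoprotein synthesis had a median log2 fold change of -0.014, with 0 at an unadjusted p below 0.05. In that list Sepsecs (0.16, adjusted p = 0.280) and Sephs2 (0.04, adjusted p = 0.818) had the smallest p on the higher side, and Secisbp2 (-0.25, adjusted p = 0.238) and Trit1 (-0.21, adjusted p = 0.369 from edgeR) on the lower side.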

How the data were processed

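The deposited values were the authors' whole-number counts per gene, without normalization. Per the labels and methods, tumor RNA was extracted with Trizol and sequenced on an Illumina sequencer, and reads were mapped with STAR to mm10 (GRCm38 in the labels) and counted by the authors with featureCounts of Subread (versions and strand setting are not given in the sources used here). A further 5 columns of the table were not used. Genes were matched to GENCODE M21 (17860 of 17864). TMM normalization, filterByExpr by group and the quasi-likelihood test of edgeR 4.0.16 in R 4.3.3 were used on all 14816 genes kept, with Benjamini-Hochberg adjusted p below 0.05. Correlations used log2 CPM with a prior count of 2 and 100000 permutations within groups. DESeq2 1.42.0, named in the study's methods, limma 3.58.1 (voom with sample quality weights), other normalizations and filters, left-out tumors, a replicate block and a GC content and length correction were alternatives. Python 3.11.15 drew figures and searched motifs. At this depth 3 counts correspond to 0.153 to 0.246 CPM, for counting error only.

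The labels give separate tumors but not whether they came from separate cages or days, so p-values measure the spread between these tumors. For sgTaz the methods of the study give a single target sequence. Any other difference between the injected sgCon and sgTaz cells cannot be told apart from the guide RNA. No pair of tumors of a group agreed within sampling noise (mean chi-square per gene 6.39 to 74.3 over 20 pairs, where noise alone gives 1). The 10 genes, the pathway lists and the marker lists were chosen with earlier results of these data known. Named were the 10 genes, Wwtr1, Nfe2l2, Keap1, Bach1, and of each pathway list the genes called by edgeR or DESeq2, with at most 2 more per direction, those of smallest edgeR p. Tmx4 and the single skeletal muscle markers were named after their values were seen. The scripts were tested on simulated data.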

Additional observations from a re-analysis of the deposited data

Results flagged for a closer look

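In 13 of 104 groups of 5 tumors 1 tumor lay far from the rest of its group. For independent and normally distributed values the rule flags about 1 in 20, or 5.2. CPM can be skewed and the groups share tumors, so 5.2 is not a chance level for these data. For the 10 genes, 1 tumor lay far from the rest in 2 of 20 groups. Gclm was at 41.1 CPM in sgTaz tumor 1 (others 34.7 to 36.5), and Gpx4 was at 416 CPM in sgCon tumor 4 (others 290 to 311). The other single genes were Txn2 in sgTaz tumor 1 (89.0 CPM, others 71.0 to 74.9), Por in sgTaz tumor 1 (116 CPM, others 78.1 to 83.2), Me1 in sgCon tumor 1 (22.4 CPM, others 27.0 to 28.8), Alox12 in sgCon tumor 1 (0.420 CPM, others 0.959 to 1.17) and Alox5, a lipoxygenase, in sgCon tumor 2 (7.16 CPM, others 2.495 to 3.18). Of these 7 values, 3 came from sgTaz tumor 1.

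The rest were summed marker lists. Tumor 5 of sgTaz had 195 CPM of B cell markers (others 0.955 to 13.0), 113 CPM of T cell markers (others 36.0 to 56.0) and 347 CPM of lymph node stroma markers (others 1.36 to 7.45). Tumor 3 of sgCon had 693 CPM of lymph node stroma markers (others 34.9 to 225). In sgTaz tumor 2, tumor epithelial markers summed to 3530 CPM (others 1547 to 2054) and skeletal muscle markers to 31.1 CPM (others 6.32 to 10.9). Only 2 of the 5 muscle markers passed the filter, and Tnnt3 alone made up 30.3 CPM of that sum. Of the muscle markers below the filter, Acta1 had 1 count, Ckm 5 and Myh4 0 in this tumor.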

How the results depend on the processing

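None of the 10 genes passed the adjusted threshold in any alternative but limma-voom, which called 2 (Gpx4 and Hmox1). Of the 91 pathway genes DESeq2 called 1 (Por, against 6.75% of all genes) and limma-voom 2 (Fth1 and Prdx5, against 10.4%), other alternatives 0. Over all genes, DESeq2 called 527 higher and 558 lower, limma-voom 686 and 860, at least 10 counts in every tumor 4 and 1, no filter 0 and 0 (3610 at an unadjusted p below 0.05), and the GC content and length correction 0 and 0 (3045). With each tumor left out in turn, between 0 and 42 genes were called higher and between 0 and 130 lower, most without sgTaz tumor 5 (172 in all) and sgTaz tumor 2 (75). The replicate block called 0 and 0 (2462 unadjusted), and with the GC content and length correction 0 and 0 (2643). Same-numbered tumors had correlations of -0.24 to 0.22 (1 of 5 above 0.1, 1 of 5 sgCon tumors closest to its own number). With so few pairs these correlations cannot exclude a batch shared by number. The block changed no call among the 10 genes. Of correlated pairs, 0 to 1 passed with a tumor left out (Gclc with Gsr, r = -0.98, without sgCon tumor 4, and Nqo1 with Gsr, r = -0.90, without sgTaz tumor 4). Log2 fold changes that turned with 1 tumor left out (range over the 10 such fits) were those of Slc7a11 (-0.012 to 0.31, turned without sgTaz tumor 1), Gclc (-0.22 to 0.021, without sgCon tumor 3), Nqo1 (-0.043 to 0.37, without sgCon tumors 1 and 5 and sgTaz tumor 4), Acsl4 (-0.046 to 0.24, without sgCon tumor 3 and sgTaz tumor 2) and Prdx6 (-0.061 to 0.057, without sgCon tumors 2 and 3 and sgTaz tumors 1 and 3). Prdx6 also turned with upper-quartile normalization (-0.0017) and at least 10 counts (-0.0032), Cisd1 with the correction (0.092, and 0.080 with the block added) and Gstp1 with both (0.0017). The correction moved the median of all genes to 0.041, from -0.019. Why these values moved was not tested.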
